A study of Oryctolagus cuniculus with 4 samples.

Results

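KRT5-detected urothelial cells without uroplakin were 295 of the 1446 cells in a urothelial gate, out of 21945 rabbit bladder cells kept from 25659 barcodes. They were chosen by measured counts of unique molecular identifiers (UMIs), in which each UMI stands for 1 captured RNA molecule. A kept cell held at least 500 UMIs and 200 genes, with at most 15% of its UMIs in 13 mitochondrial protein genes. Inside the gate, KRT15, KRT18 and KRT7 together took at least 0.2% of the UMIs, DCN and LUM together took less than 0.5%, and no PTPRC UMI was present. Members also had at least 1 KRT5 UMI and no UMI of UPK1B or UPK3B. The levels of these 9 genes chose the cells, so they are given below as descriptions and were not tested.

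The urothelium is the layered lining of the bladder, with basal cells on the basement membrane, intermediate cells above them and umbrella cells at the lumen. Basal cells are known for KRT5 and the transcription factor TP63 and for the laminins and integrins that hold an epithelium to its basement membrane. Uroplakins are the membrane proteins of the luminal plaques and mark the differentiated cells.

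Mucosa was taken from New Zealand rabbits as a piece of 2.0 by 2.0 cm and digested with collagenase. The normal rabbits (Normal_1 and Normal_2) were sampled in homeostasis, and the injured rabbits (Injury_1 and Injury_2) on day 10 after a focal resection of the full thickness of the mucosa, when new urothelium had just covered the wound. Each of the 4 rabbits gave 1 library, with no treatment or transgene besides. The libraries held 28745017 to 47881609 UMIs, Normal_1 being the shallowest, and any pair of libraries shared 8 to 13 barcodes, of which 0 or 1 belonged to a member.

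Members made up a smaller part of the gate in both injured rabbits than in either normal one. Normal_1 held 136 members among 411 gated cells (33.1%, 95% Wilson interval 28.7 to 37.8%) and Normal_2 held 53 among 159 (33.3%, 26.5 to 41.0%). Injury_1 held 43 among 538 (7.99%, 5.99 to 10.6%) and Injury_2 held 63 among 338 (18.6%, 14.8 to 23.1%). The intervals cover counting error only, and the rabbits of the 2 conditions did not overlap. The mean was 13.3% ± 7.53 (SD, n = 2) after injury and 33.2% ± 0.172 (SD, n = 2) in normal bladder, a difference of -19.9 percentage points (two-sided exact permutation test, p = 0.33, the smallest that 2 rabbits against 2 allow). Shares within 1 gate sum to the whole, and in Injury_1 cells with uroplakin and no KRT5 took 69.0% of it, against 40.2% in Injury_2, 26.0% in Normal_1 and 13.8% in Normal_2. Cells with both KRT5 and uroplakin took 8.74% and 18.0% of the gate after injury and 3.41% and 3.14% in normal bladder.

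The keratin limit of the gate bears on this share. The median member gave 0.367% of its UMIs to the 3 gate keratins in Normal_1, 0.546% in Normal_2, 0.744% in Injury_1 and 0.636% in Injury_2. With a limit of 1%, no normal cell remained a member and the difference turned to 21.7 points, while with 0.4%, a value chosen after the data had been seen, it was -16.1 points. With mitochondrial shares up to 10%, Normal_2 fell to 18.2%, beside 17.4% in Injury_2, and the difference was -12.2 points. Each cell thinned to 1000 UMIs was expected to be a member in 13.5%, 8.66%, 3.43% and 8.52% of the gate in Normal_1, Normal_2, Injury_1 and Injury_2, so that Normal_2 and Injury_2 lay side by side.

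**Figure D1:**
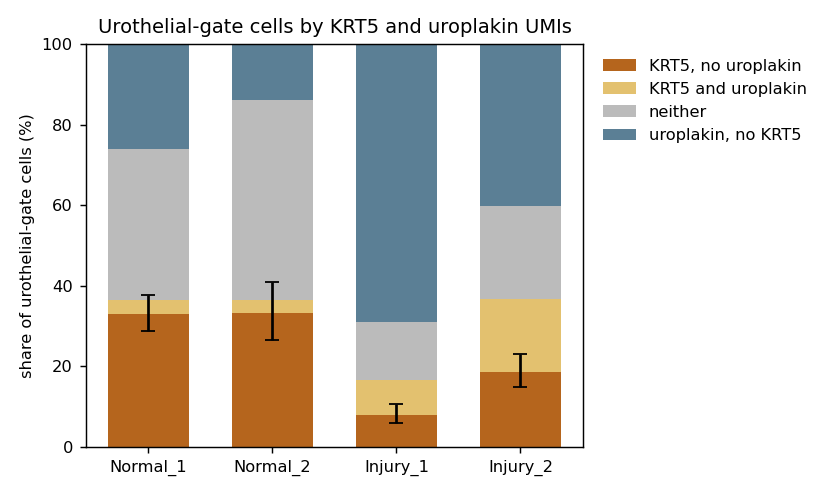
Share of the urothelial-gate cells (%, y axis) in each of the 4 rabbits (x axis), stacked by whether KRT5 and uroplakin (UPK1B or UPK3B) UMIs were present, with 95% Wilson intervals on the KRT5-detected cells without uroplakin. These cells took 33.1% and 33.3% of the gate in the normal rabbits and 7.99% and 18.6% in the injured ones.

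Few KRT5-positive cells lay outside the gate. Of 490 kept cells with a KRT5 UMI, 422 were in the gate, 295 as members and 127 with uroplakin, and 68 were outside, 54 of them with a keratin sum under 0.2%. A KRT5 UMI was found in 18 of 7996 cells of the stromal gate (DCN and LUM at least 0.5%, keratins under 0.2%), or 0.225%, at a median depth of 7410.5 UMIs against 16565 in members. Just inside the keratin limit, 11 members had a sum under 0.25%, and just outside it 8 cells that otherwise met the rule had one of 0.15 to 0.2%. At the KRT5 limit, 82 members had a single KRT5 UMI, while 129 had at least 5 and 67 at least 10, up to 104.

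LAMB3, ITGA2 and PTHLH had mean levels in members with 1 KRT5 UMI that lay between those of cells without KRT5 and of members with more, with SDs wider than the steps for most. Over the 4 rabbits, LAMB3 had a mean level of 130 ± 136 CPM (UMIs of the gene per 1000000 UMIs, SD, n = 4) in gated cells with neither KRT5 nor uroplakin, 168 ± 135 CPM in members with 1 KRT5 UMI and 304 ± 215 CPM in those with at least 5. ITGA2 had 77.9 ± 32.0, 137 ± 84.9 and 197 ± 104 CPM in the same grades, and PTHLH had 48.2 ± 37.9, 80.5 ± 23.6 and 101 ± 95.2 CPM. TP63 did not follow this order, with means of 20.4, 15.7 and 20.6 CPM, and neither did INSL5, with 183, 127 and 214 CPM. In the 39 cells with KRT5 and 1 uroplakin UMI, of which only Injury_2 had 10 or more, LAMB3 stood at 18.1 CPM, ITGA2 at 22.6 CPM and PTHLH at 20.4 CPM, beside 32.5, 66.7 and 41.3 CPM in all members of that rabbit. These values are descriptions, since the KRT5 and uroplakin counts set the grades.

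The gate genes themselves differed among rabbits. KRT5 had 473 CPM in the members of Normal_1, 247 in Normal_2, 328 in Injury_1 and 662 in Injury_2, so the conditions overlapped. KRT15, a basal keratin, had 2210 and 2990 CPM in normal members and 6170 and 6110 CPM in injured ones. KRT7 had 140 and 281 CPM against 527 and 469 CPM, and KRT18 had 1420 and 1890 against 1440 and 1060 CPM. Markers of other cell types were present in members, unevenly over rabbits. The rule itself capped DCN and LUM, which are in the fibroblast list, and set PTPRC, an immune marker, to 0, and 143 members had a DCN or LUM UMI. The 7 fibroblast markers summed to 58.2, 628, 354 and 565 CPM in Normal_1, Normal_2, Injury_1 and Injury_2, the 8 endothelial markers to 26.1, 106, 14.7 and 65 CPM, and the 7 smooth muscle and pericyte markers to 30.4, 125, 35.5 and 14.9 CPM. The 11 immune markers summed to at most 11 CPM, with MS4A1, C1QB and MZB1 among those at 0, and the 6 glial markers to at most 1.22 CPM, with SCN7A, S100B and CDH19 among those at 0. S100A12, a calcium-binding protein abundant in neutrophils and not in the immune list, had 0 CPM in normal members and 396 and 48.3 CPM in injured ones. The part of RNA from other cells in the results below was not tested.

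Members were first set against the 636 gated cells with uroplakin and without KRT5, rabbit by rabbit. The laminin chains LAMB3 and LAMA3, the keratins KRT16 and KRT17 and all 8 tested proliferation genes passed as higher in members. Some of the proliferation genes were not higher in every rabbit. Of 13 tested genes of differentiated urothelium, 6 were lower. For each rabbit and class the UMI counts were summed, and edgeR's quasi-likelihood test was run on the sums with the rabbit as a block and Benjamini-Hochberg adjustment. The comparisons across genes below used the same test. Of 5412 genes tested, 519 (9.59%) were higher in members and 419 (7.74%) lower. With total UMIs as the scale in place of TMM, the split was 366 higher and 584 lower, with the median gene shifted to -0.13 on the log2 scale.

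The adhesion genes of the basal side were higher in members. LAMB3, a chain of the laminin of epithelial basement membranes, had 372, 477, 144 and 32.5 CPM in the members of Normal_1, Normal_2, Injury_1 and Injury_2 and 29.9, 100, 3.55 and 8.01 CPM in their uroplakin-detected cells. It was higher in 4 of 4 rabbits, by 3.50 ± 0.44 (log2 fold change ± SE, edgeR adjusted p = 0.00194). LAMA3, another chain of the same laminin, was higher by 2.80 ± 0.41 (edgeR adjusted p = 0.0035), and ITGA2, the collagen-binding integrin chain, with 287, 202, 130 and 66.7 CPM against 16.1, 23.8, 26.4 and 35.1 CPM, by 2.63 ± 0.45 (edgeR adjusted p = 0.00566). Of 7 tested genes of the list of hemidesmosome and basement membrane adhesion, 5 were higher (LAMA3, LAMB3, ITGA2, ITGA6 and NID1), none was lower and the median was 2.63 against 0.01 for all genes. The most abundant, DST, a plakin of hemidesmosomes, did not pass.

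PTHLH, the parathyroid hormone-like hormone, was also higher in 4 of 4 rabbits. Its levels were 185, 63.6, 88.2 and 41.3 CPM in members and 9.21, 18.5, 16.9 and 15.5 CPM in uroplakin-detected cells, and the 2 ranges did not overlap (log2 fold change 2.65 ± 0.42, edgeR adjusted p = 0.00432). Among basal genes, KRT16 (5.17 ± 0.42, edgeR adjusted p = 0.000323) and KRT17 (3.32 ± 0.33, adjusted p = 0.00068), keratins of activated and wounded epithelium, rose above the uroplakin-detected cells, as did CD44, the hyaluronan receptor, F3, the tissue factor that starts coagulation, and TRIM29. KRT16 had 4 and 7 UMIs in the members of Normal_1 and Normal_2, values that are not read as expression below. Its result rests on the injured rabbits, with 71.0 and 152 CPM against 2.44 and 2.50 CPM. Keratins have close paralogs, and reads shared with a copy could be split by the counting. In all, 6 of 8 tested genes of the basal list were higher and none lower, with a median of 1.96. The other 2 were TP63 and INSL5. This list, like the others, was chosen with earlier results of these data known, and it holds PTHLH, a marker of the members. Its counts are therefore descriptions and not independent support for a basal identity.

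TP63 did not set the members apart. It had 20.8, 14.3, 24.5 and 29.0 CPM in members and 19.2, 26.4, 12.9 and 18.0 CPM in uroplakin-detected cells, overlapping, with a log2 fold change of 0.48 ± 0.29 (edgeR adjusted p = 0.28). Against cells with neither, which had 26.6, 23.9, 12.2 and 18.8 CPM, it was 0.10 ± 0.28 (edgeR adjusted p = 0.928). Over the pooled cells of all rabbits, a TP63 UMI was found in 28.5% of members, 16% of uroplakin-detected cells, 19.8% of cells with neither and 0.075% of stromal cells. With cells thinned to 1000 UMIs the share was 2.02%, 1.40%, 1.93% and 0.00909%, and members exceeded uroplakin-detected cells by 0.162 ± 1.23 points (SD, n = 4 rabbits, two-sided exact sign-flip permutation test, p = 0.875). TP63 was therefore well above the stromal level in all 3 urothelial classes, and a difference among them was not detectable at this depth.

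The shares of cells with a UMI were compared in the same way for the other marker genes. Thinned to 1000 UMIs, a LAMB3 UMI was found in 28%, 34.6%, 11.1% and 3.00% of the members of Normal_1, Normal_2, Injury_1 and Injury_2, in 2.01%, 6.64%, 0.255% and 0.741% of their uroplakin-detected cells and in at most 0.325% of their stromal cells, and the mean difference between the urothelial classes was 16.8 ± 12.3 points (SD, n = 4 rabbits). The same difference was 12.5 ± 7.43 points for ITGA2 and 7.24 ± 5.48 points for PTHLH. Members were higher in 4 of 4 rabbits for each gene, with p = 0.125 in the two-sided exact sign-flip permutation test, the smallest that 4 rabbits allow. PTHLH was also found in stromal cells of the injured rabbits, in 3.13% against 8.71% of members in Injury_1 and in 4.10% against 3.82% of members in Injury_2, so in Injury_2 its share in members was not above the stromal one.

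**Figure D2:**
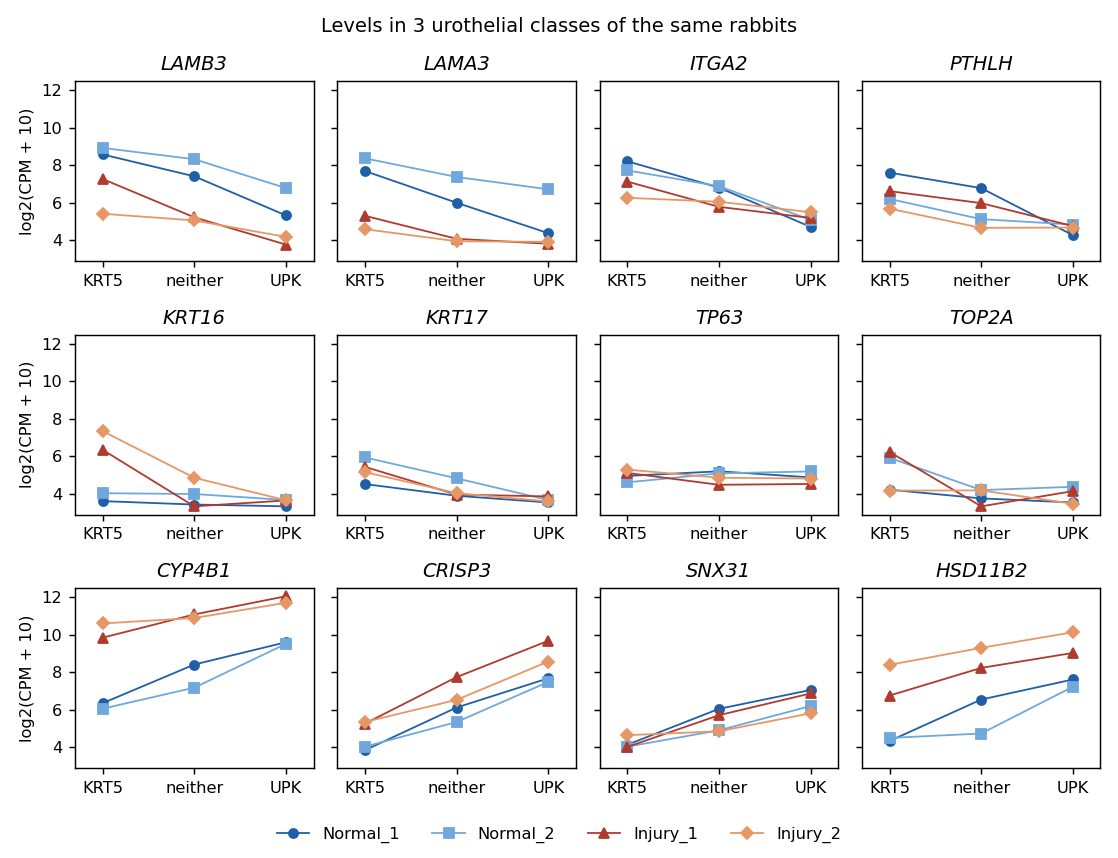
Level of 12 genes as log2(CPM + 10) (y axis) in KRT5-detected cells, cells with neither KRT5 nor uroplakin and uroplakin-detected cells (x axis), with 1 line per rabbit and UMI counts summed per class. LAMB3, LAMA3, ITGA2, PTHLH, KRT16 and KRT17 were highest in KRT5-detected cells of all 4 rabbits, KRT16 at few UMIs in the normal ones. The 4 genes of the bottom row were lowest in KRT5-detected cells, and the TP63 lines crossed.

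Cell cycle genes stood higher in members. All 8 tested genes of the proliferation list rose above the uroplakin-detected cells (TOP2A, CCNB2, CDK1, PCNA, MCM3, MCM4, MCM5 and AURKB), with a median of 2.22. TOP2A, the mitotic topoisomerase, had 8.54, 50.2, 64.9 and 7.90 CPM in the members of Normal_1, Normal_2, Injury_1 and Injury_2 and 1.53, 10.6, 7.54 and 1.00 CPM in the uroplakin-detected cells (log2 fold change 2.90 ± 0.31, edgeR adjusted p = 0.000961). MCM3, a subunit of the replicative helicase, had 19.7, 38.5, 20.8 and 30.7 CPM against 5.37, 5.28, 4.88 and 13.5 CPM (1.92 ± 0.31, edgeR adjusted p = 0.00461). PCNA, the replication clamp, rose by 0.83 ± 0.22 (edgeR adjusted p = 0.0329) and was higher in 3 of 4 rabbits. TOP2A was high in 1 rabbit of each condition and not by condition. Over pooled cells, a TOP2A UMI was found in 9.83% of members, 2.99% of uroplakin-detected cells and 16.6% of stromal cells (1.48%, 0.274% and 3.16% thinned), and the part of RNA from other cells was not tested.

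Growth factor, protease and cytokine genes were among those higher in members. NRG1, a ligand of the ERBB receptors, had 13.9, 20.6, 39.2 and 19.3 CPM against 1.53, 2.64, 2.66 and 2.50 CPM, which did not overlap (log2 fold change 3.48 ± 0.36, edgeR adjusted p = 0.000799). Thinned, a NRG1 UMI was found in 1.39%, 2.23%, 6.39% and 1.69% of members and 0.369%, 0.891%, 5.04% and 6.17% of stromal cells of Normal_1, Normal_2, Injury_1 and Injury_2, so that members were below stroma in Injury_2. HBEGF, a ligand of the EGF receptor, and its feedback inhibitor ERRFI1 also rose, while ERBB2, the shared receptor partner, fell by 1.04 ± 0.18 (edgeR adjusted p = 0.0055). Of 14 tested genes of wound and migration, 8 were higher, among them the proteases PLAU, MMP1, MMP10 and MMP13, and CCN1 and CCN2 were lower. Of 15 inflammation genes 6 were higher, including CXCL8, the neutrophil chemokine (1.92 ± 0.27, edgeR adjusted p = 0.00277), and NFKBIZ and PIGR were lower. CXCL8 was found, thinned, in 26.4% and 17.2% of injured members and in 38.3% and 31.5% of stromal cells of the same rabbits. Of 13 thiol redox genes 5 were higher (TXNRD1, SLC7A11, HMOX1, SRXN1 and AKR1B10) and MGST1 was lower.

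The genes with the largest rise above uroplakin-detected cells, after KRT16, were CLCA2 (log2 fold change 4.23), LAMB3, NRG1, COL8A1 (3.34), KRT17, NRM (3.10), LMO1 (3.04), AQP8 (3.02) and GPAT3 (2.96). COL8A1 encodes a short-chain collagen, LMO1 a transcription cofactor, AQP8 a water channel and GPAT3 an enzyme of triglyceride synthesis. The AQP8 result rests on the normal rabbits, with 74.7 and 47.5 CPM in members against 13.0 and 0 CPM. Injured members had 1.22 and 4.39 CPM of it, from 1 and 5 UMIs. In Normal_2, cells with neither KRT5 nor uroplakin had 52.0 CPM of AQP8, above the members. COL8A1 had 56.0, 59.1, 75.9 and 33.4 CPM in members and 3.07, 5.28, 8.87 and 5.01 CPM in uroplakin-detected cells, apart in every rabbit. The other lists had smaller shares past the test: 3 of 10 immediate early genes were higher, 1 of 9 genes of desmosomes and adherens junctions (CDH1), 2 of 10 of the hypoxia response, 3 of 16 of ribosome biogenesis and 1 of 12 ribosomal protein genes. No gene of the Notch list passed out of 3, and the tight junction list had 1 higher (CLDN1) and 1 lower (OCLN) of 6.

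Lower in members were genes of the differentiated layers. CRISP3, a cysteine-rich secreted protein, had 4.27, 6.27, 28.2 and 30.7 CPM in members and 195, 169, 812 and 371 CPM in uroplakin-detected cells, with no overlap (log2 fold change -4.42 ± 0.27, edgeR adjusted p = 3.9e-05). SNX31, a sorting nexin of umbrella cells, had 7.47, 6.27, 6.12 and 14.9 CPM against 123, 63.4, 107 and 46.1 CPM (-3.06 ± 0.36, edgeR adjusted p = 0.00162). CYP4B1, a cytochrome P450 of fatty acid and foreign compound oxidation, had 71.5, 56.4, 911 and 1550 CPM against 769, 724, 4270 and 3350 CPM (-2.41 ± 0.34, edgeR adjusted p = 0.00308). Within each rabbit the 2 classes were well apart in all 3 genes.

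Of 13 tested genes of the list of differentiated urothelium, 6 were lower (GATA3, GRHL3, SNX31, SLC44A4, CYP4B1 and TXNIP) and 2 higher, the water channels AQP3 and AQP8, with a median of -0.83. The AQP8 gap lay in the normal rabbits. GATA3 and GRHL3 are transcription factors of urothelial differentiation. The other genes with the largest falls were UCHL1 (-3.99), FLRT3 (-3.56), SF3B2 (-3.45), DAB2 (-3.24), FABP3 (-2.94), KRT12 (-2.89), PRKACB (-2.67) and HSD11B2 (-2.61), which include a ubiquitin hydrolase, an endocytic adaptor, a fatty acid binding protein and the enzyme that inactivates glucocorticoids. Levels under the symbols SF3B2 and KRT12 rest on the annotation of the files, and whether reads of other genes are counted under them was not tested. The signals SHH, the hedgehog ligand (-0.91 ± 0.17, edgeR adjusted p = 0.00759), and BMP2, a bone morphogenetic protein (-1.71 ± 0.29, adjusted p = 0.00512), were lower in members of all 4 rabbits, and the BMP inhibitor SMAD7 was higher.

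**Figure D3:**
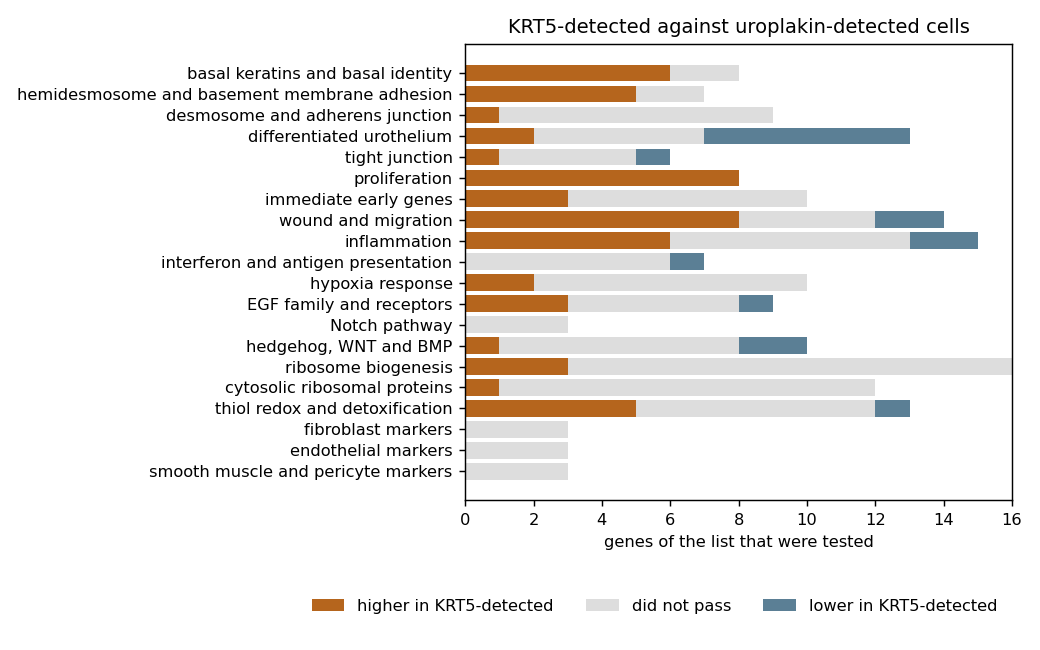
Number of tested genes (x axis) in each of 20 gene lists with at least 3 tested genes (y axis) that were higher, lower or did not pass (edgeR adjusted p) in KRT5-detected against uroplakin-detected cells. All 8 proliferation genes passed as higher, though not each in every rabbit, and 6 of the 13 genes of differentiated urothelium were lower.

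Set against the 388 gated cells with neither KRT5 nor uroplakin, members differed in fewer genes. Of 5275 genes tested, 35 (0.664%) were higher and 34 (0.645%) lower. The hemidesmosome and basement membrane list had 3 of 7 genes higher: LAMA3 by 1.52 ± 0.20 (edgeR adjusted p = 0.0024), LAMB3 by 1.15 ± 0.21 (adjusted p = 0.0224) and ITGA2 by 1.11 ± 0.19 (adjusted p = 0.015). The basal list had 5 of 8 higher (KRT16, KRT17, CD44, PTHLH and F3). KRT16 had 2.13 and 6.27 CPM in normal members against 0.683 and 5.78 CPM in cells with neither. In the injured rabbits it had 71.0 and 152 against 0 and 18.8 CPM, so its gap lay there. PTHLH had 185, 63.6, 88.2 and 41.3 CPM in members and 99.7, 24.8, 53.0 and 15.2 CPM in cells with neither, higher in 4 of 4 rabbits (1.10 ± 0.16, edgeR adjusted p = 0.00596).

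Among other genes, NRM, LMO1, COL8A1 and PLEK2 rose by 1.17 to 1.52, MCM3 by 1.04 ± 0.23 (edgeR adjusted p = 0.0404) and the Notch target HES1 by 0.43 ± 0.09 (adjusted p = 0.0404). CRISP3 fell by 2.42 ± 0.28 (edgeR adjusted p = 0.00127), and SF3B2, DAB2, SNX31, FABP3, KRT23, KRT12, HSD11B2, SLC44A4 and ADAMTS14 by 1.40 to 1.96, each in 4 of 4 rabbits, which was a condition of their choice. IL1B and S100A9, an inflammatory cytokine and a calcium-binding protein abundant in neutrophils, were lower in members, which had 0.534, 3.58, 50.2 and 26.3 CPM of S100A9 against 0.683, 4.13, 89.8 and 122 CPM. The part of immune RNA in that difference was not tested. The lists of inflammation (0 higher and 3 lower of 15), thiol redox (0 of 13) and proliferation (1 of 8) had other counts than against uroplakin-detected cells. Far fewer genes of any kind passed here, so short lists would hold fewer calls, and the counts alone do not show that a gap was absent. The median log2 fold changes of these lists were 0.03, -0.04 and 1.14, against -0.01 for all genes, so the proliferation list still leaned towards members. The members are in both comparisons, so the 2 sets of genes are not independent. Leaving out Normal_1 left 11 genes and leaving out Injury_1 left 13, where leaving out Injury_2 gave 234.

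Within members, cells with more KRT5 were set against cells with less. Members with at least 5000 UMIs were split at 5 KRT5 UMIs per 10000, which gave 10 or more cells on both sides in only 2 rabbits, Normal_1 (49 high and 77 low) and Injury_2 (14 and 44). Median depths were 13906 and 14927 UMIs in Normal_1 and 20676.5 and 18459.5 in Injury_2. Of 4171 genes tested, 21 (0.503%) were higher and 30 (0.719%) lower in KRT5-high members, with 1 residual degree of freedom. DESeq2 called 10 genes, a split at 10 per 10000 called 5, and RLE and total-UMI scaling cut the share of rises from 41.2% to 29.2% and 21.2%.

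CXCL8 had 153 and 50.8 CPM in the high and low members of Normal_1 and 636 and 323 CPM in those of Injury_2 (log2 fold change 1.25 ± 0.18, edgeR adjusted p = 2.56e-07). IL36G, an epithelial cytokine of the interleukin-1 family, had 37.6 against 1.72 CPM and 26.8 against 0 CPM, higher in the high cells of both rabbits (4.85 ± 0.66, edgeR adjusted p = 7.99e-08). An IL36G UMI was found in only 2.94% of the members of Normal_1 and 3.17% of those of Injury_2. Over all 4 rabbits 10 members had one, so this rise rests on few cells and is not read as a trait of KRT5-high members. LAMA3, ITGA2, PLAU, LAMB3, CAPG, GLIPR1, AKR1B10 and ANXA8 rose by 0.59 to 0.88, with the same sign in both rabbits, which was a condition of their choice. CYP4B1 went the other way, with 24.6 against 99.1 CPM in Normal_1 and 758 against 1880 CPM in Injury_2 (-1.43 ± 0.16, edgeR adjusted p = 2.16e-10), as did FABP3, SF3B2, SPP1, HSD11B2 and ASGR2. The CYP4B1 values of normal members are not read as expression below, which leaves the 14 high and 44 low members of Injury_2 for that gene. TP63 (0.36 ± 0.39, edgeR adjusted p = 0.86) and PTHLH (0.69 ± 0.22, adjusted p = 0.135) did not pass.

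Injured members were then compared with normal ones. After injury, members held more INSL5, KRT16 and CYP4B1 and less of the laminin chain LAMA3, F3, AQP8 and KIT. Of 4775 genes tested between 2 rabbits and 2, 34 (0.712%) were higher after injury and 46 (0.963%) lower. With total UMIs as the scale the split turned to 100 higher and 32 lower, with the median gene at 0.29 on the log2 scale, so directions of small size depend on the scaling. The mitochondrial share moved with condition, with medians of 10.5% and 11.3% in normal members and 8.44% and 9.47% in injured ones. With members limited to 10%, which left 56, 12, 29 and 38 of them, no gene passed in edgeR, 722 had an unadjusted p under 0.05, and DESeq2, run on all members only, called 217. Of the 34 genes followed through this alternative, 31 could be fitted, and TP63, which was not called with all members, was the only one to change direction.

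INSL5, an insulin-like peptide of the relaxin family, had 3.74 and 6.27 CPM in normal members and 239 and 477 CPM in injured ones, far apart (log2 fold change 5.93 ± 0.55, edgeR adjusted p = 0.0286). An INSL5 UMI was found in 2.21% and 9.43% of normal and 58.1% and 79.4% of injured members, and in 0.35% of stromal cells. Thinned, the shares were 0.315%, 0.525%, 16% and 25.4%. Among members with at least 5000 UMIs, INSL5 was found in 8 of 177 normal and 73 of 97 injured cells. Of the 73, 41.1% also had a PTHLH UMI, against 45.8% of the other 24 injured members, and 97.3% had CYP4B1, against 95.8%.

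CYP4B1 rose with injury as well, from 71.5 and 56.4 CPM to 911 and 1550 CPM (log2 fold change 3.98 ± 0.39, edgeR adjusted p = 0.0286). It was found in 33.1% and 34% of normal and 93.0% and 93.7% of injured members, and in 65.7%, 56.6%, 38.7% and 18.3% of stromal cells of Normal_1, Normal_2, Injury_1 and Injury_2, so the stromal share moved the opposite way. Thinned to 1000 UMIs, normal members had 5.64% and 4.59%, below the 28.6% and 21.5% of stromal cells, and injured members 47.2% and 62.3%, above their 8.98% and 3.41%, so that the values of normal members are not read as expression. SLC44A4, a choline transporter of epithelia, rose from 1.07 and 0 CPM to 28.2 and 24.6 CPM (4.85 ± 0.73, edgeR adjusted p = 0.0382). HSD11B2 rose from 10.1 and 12.5 to 98.0 and 327 CPM (3.98 ± 0.66, edgeR adjusted p = 0.045). All 3 genes were lower in members than in uroplakin-detected cells in each rabbit, and higher after injury.

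KRT16 had 2.13 and 6.27 CPM in normal members and 71.0 and 152 CPM in injured ones (log2 fold change 4.57 ± 0.65, edgeR adjusted p = 0.0382). A KRT16 UMI was found in 2.94% and 9.43% of normal members against 2.55% and 6.43% of the stromal cells of the same rabbits, and in 23.3% and 23.8% of injured members against 7.17% and 10.6%. After thinning the shares were 0.70% and 0.558% in normal members, below the stromal 0.902% and 2.31%, and 5.94% and 8.33% in injured members, above the stromal 2.28% and 3.51%. The KRT16 values of normal members are therefore not read as expression. KRT17 did not follow it, with 12.8, 51.1, 33.1 and 25.5 CPM in Normal_1, Normal_2, Injury_1 and Injury_2 (-0.41 ± 0.65, edgeR adjusted p = 0.746).

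The other genes with the largest rises were ATP6V0D2 (5.50), a subunit of the proton pump, GRAMD1C (4.82), a sterol transfer protein, ADH6 (4.57), an alcohol dehydrogenase, DDX60 (4.53), an interferon-induced helicase, POF1B (4.15), an actin-binding epithelial protein, and CSTA (4.14), a cysteine protease inhibitor. All of these except GRAMD1C were also higher after injury, without overlap, in uroplakin-detected cells and in cells with neither KRT5 nor uroplakin. DDX60, for example, had 1.53 and 2.64 CPM in normal and 35.5 and 26.0 CPM in injured uroplakin-detected cells. These rises were therefore not particular to members. GRAMD1C had 1.60 and 0.896 CPM in normal members and 60.0 and 38.6 CPM in injured ones. FDFT1 and CYP51A1, enzymes of cholesterol synthesis, rose by 3.10 ± 0.34 (edgeR adjusted p = 0.0286) and 2.48 ± 0.31 (adjusted p = 0.0314), and ID1, a target of BMP signalling, by 2.23 ± 0.37 (adjusted p = 0.045). HLA-DRA, a class II antigen presentation gene, was the 1 gene of 6 tested of its list to rise, from 0.534 and 0 CPM to 18.4 and 12.3 CPM. The immune markers summed to 1.60 and 0.896 CPM in normal members and 11 and 7.90 CPM in injured ones, and their part in the HLA-DRA values was not tested.

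Of the adhesion genes that were higher in members, LAMA3 fell with injury. It had 197 and 321 CPM in normal members and 29.4 and 14.0 CPM in injured ones (log2 fold change -3.93 ± 0.44, edgeR adjusted p = 0.0286). Cells with neither KRT5 nor uroplakin also had less LAMA3 after injury, with 53.9 and 156 against 6.80 and 5.36 CPM. Uroplakin-detected cells had 10.7 and 95.1 against 3.99 and 5.01 CPM. LAMB3 had 372 and 477 against 144 and 32.5 CPM, without overlap, and did not pass (-2.63 ± 0.60, edgeR adjusted p = 0.0729). ITGA2 had 287 and 202 against 130 and 66.7 CPM (-1.64 ± 0.34, edgeR adjusted p = 0.0632). PTHLH had 185 and 63.6 against 88.2 and 41.3 CPM, which overlapped (-1.27 ± 0.52, edgeR adjusted p = 0.217), and TP63 gave 0.30 ± 0.39 (adjusted p = 0.684). Whether LAMB3, ITGA2 and PTHLH passed depended on which rabbit was left out. Such fits leave a single rabbit in a condition, so their calls are not given. Of the 7 tested genes of the hemidesmosome and basement membrane list only LAMA3 fell and none rose, with a median of -1.64 against -0.01 for all genes.

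F3 had 3320 and 4560 CPM in normal members and 763 and 212 CPM in injured ones, a wide gap (log2 fold change -3.37 ± 0.58, edgeR adjusted p = 0.0475). AQP8 had 74.7 and 47.5 against 1.22 and 4.39 CPM (-4.58 ± 0.55, edgeR adjusted p = 0.0295). KIT, the stem cell factor receptor, had 17.6 and 18.8 against 0 and 0.878 CPM (-5.17 ± 0.80, edgeR adjusted p = 0.0386), and its call was lost without Normal_1, without Injury_1 or without Injury_2. KIT also marks mast cells. Of the 4 other mast cell markers measured, CPA3 and MS4A2 were at 0 in members, HPGDS had 4.80, 3.58, 2.45 and 0 CPM and HDC 0, 0.896, 0 and 3.51 CPM in Normal_1, Normal_2, Injury_1 and Injury_2, and their part in the KIT values was not tested. A KIT UMI was found in 20.6% and 24.5% of normal members, none of the 43 members of Injury_1, where up to 6.98% of cells with a UMI could give 0, and 1.59% of those of Injury_2. In normal members with at least 5000 UMIs, 85.4% of the 41 with KIT had PTHLH, against 60.3% of the others. AQP8 was found in 16 of the 41, or 39.0%, against 41.2% of the others. Cells of the 2 normal rabbits were pooled here, and their members differed in PTHLH, found in 69.9% in Normal_1 and 45.3% in Normal_2.

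MMP3 (-4.91), RARRES1 (-4.00), CRTAC1 (-4.00), LIMCH1 (-3.78), ITGB6 (-3.64) and NR1H4 (-3.43) were among the other genes with the largest falls, and include a matrix protease, an epithelial integrin chain and the bile acid receptor. CRTAC1, LIMCH1, ITGB6 and NR1H4 were also lower after injury, without overlap, in uroplakin-detected cells and in cells with neither KRT5 nor uroplakin. The MMP3 levels of the conditions overlapped in both of those classes. An MMP3 UMI was found in 6.62% and 5.66% of normal members and 4.65% and 1.59% of injured ones. These were 15 members in all, so the MMP3 fall rests on few cells. RARRES1 and NR1H4 were also lower in members than in uroplakin-detected cells. TXNRD1, the thioredoxin reductase, fell from 3140 and 1790 CPM to 640 and 335 CPM (-2.65 ± 0.39, edgeR adjusted p = 0.0382) and SRXN1, the sulfiredoxin, by 1.47 ± 0.25 (adjusted p = 0.045), the only 2 of 12 thiol redox genes to pass. THBS1 and ITGB6 fell and KRT16 rose among 14 wound and migration genes, and PTGS2, the inducible cyclooxygenase, was the only one of 15 inflammation genes to pass (-1.91 ± 0.31, edgeR adjusted p = 0.045). With 0.712% and 0.963% of all genes past the test, short lists would hold few calls, and no gene passed of 8 in the proliferation list, 9 of the EGF family and receptors, 10 of the hypoxia response, 15 of ribosome biogenesis, 12 ribosomal proteins, 9 immediate early genes, 9 of desmosomes and adherens junctions and 6 of tight junctions. Ribosomal proteins had a median of -0.50 and ribosome biogenesis genes one of -0.40.

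**Figure D4:**
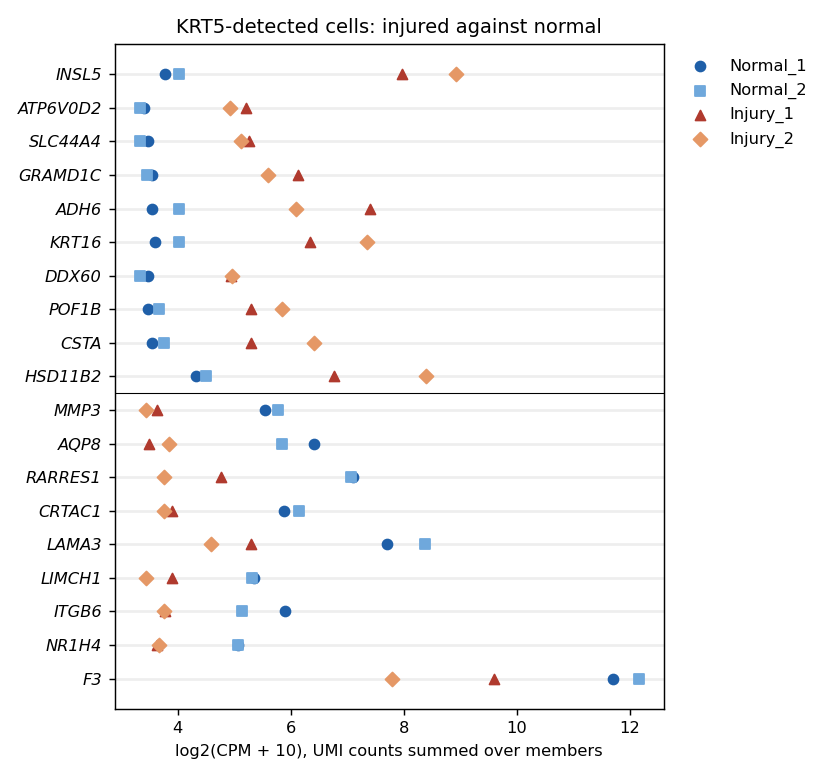
Level of the 10 genes with the largest rise (top) and 9 of those with the largest fall (bottom) after injury in KRT5-detected cells, as log2(CPM + 10) (x axis) of UMI counts summed per rabbit, with 1 point per rabbit. The normal and injured rabbits did not overlap in any of these genes, which was a condition of their choice.

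Last, the change with injury in members was compared with that in uroplakin-detected cells, as an interaction with the rabbit as a block. Of 5412 genes tested, 8 (0.148%) had a higher and 4 (0.0739%) a lower log2 change in members. INSL5 rose in both classes, from 15.3 and 15.8 to 102 and 135 CPM in uroplakin-detected cells, and more in members (interaction 3.05 ± 0.49, edgeR adjusted p = 0.0428). Cells with neither KRT5 nor uroplakin had 14.3 and 3.30 CPM in normal bladder and 249 and 465 CPM after injury, close to the 239 and 477 CPM of injured members. GRAMD1C was near 0 in normal members, while uroplakin-detected cells had 86.7 and 42.3 CPM in normal bladder and 110 and 79.1 CPM after injury, overlapping, with an interaction of 4.45 ± 0.48 (edgeR adjusted p = 0.00397). The interaction was not past the threshold for PTHLH (-1.89 ± 0.64, edgeR adjusted p = 0.256), F3 (-0.67 ± 0.80, adjusted p = 0.788), LAMB3 (0.81 ± 0.80, adjusted p = 0.739), KRT16 (2.89 ± 2.04, adjusted p = 0.621) or AQP8 (-0.99 ± 1.63, adjusted p = 0.844), whose standard errors leave wide room for a difference.

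**Figure D5:**
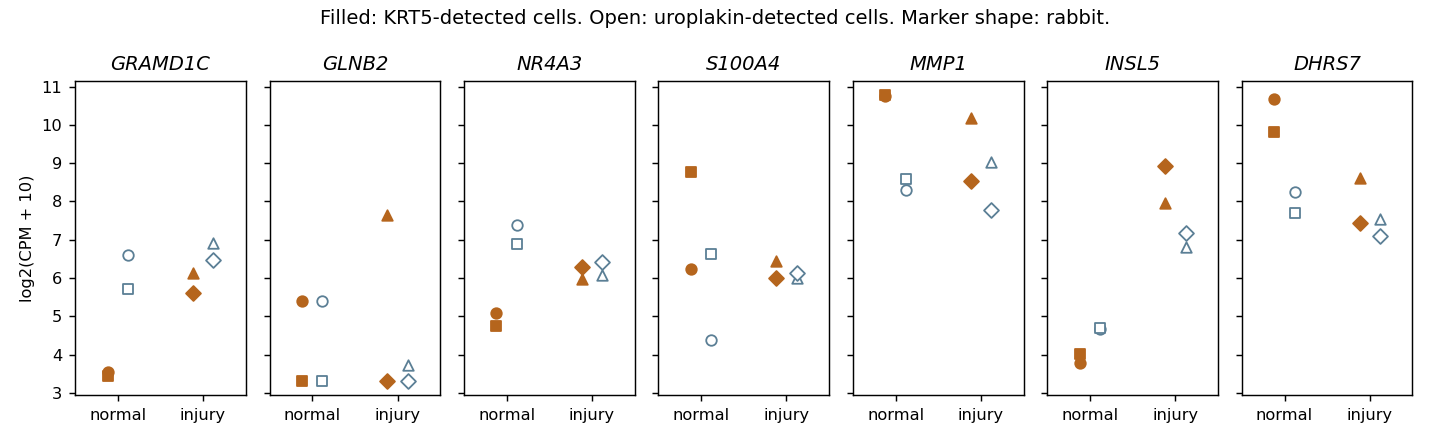
Level as log2(CPM + 10) (y axis) of the 7 named genes whose change with injury differed between KRT5-detected (filled) and uroplakin-detected cells (open), by condition (x axis), with 1 marker shape per rabbit. GRAMD1C and INSL5 rose more in KRT5-detected cells, and DHRS7 fell there more. MMP1 fell in KRT5-detected cells, while in uroplakin-detected cells its injured rabbits lay on both sides of the normal ones. The S100A4 points of the 2 conditions overlapped.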

How the data were processed

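The authors deposited UMI counts per gene and barcode from droplet single-cell libraries of 4 rabbit bladders, 1 library per rabbit, as whole numbers without normalization after the cell calling of Cell Ranger (6.0.1 in the file headers). Seurat is named in the submitters' notes. The genome build was not given in the sources used here. Of 18475 genes, 9769 had a unique symbol in the files, and the others were tested without being named.

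The members and the 23 gene lists were chosen with earlier results of these data known. Counts were summed per rabbit and class and tested with edgeR 4.0.16 in R 4.3.3 (filterByExpr, TMM, quasi-likelihood fit, Benjamini-Hochberg threshold 0.05), with the rabbit as a block between classes. The gate genes were left out of the adjustment. A CPM is the gene's UMIs per 1000000 UMIs of those cells. Named genes were the markers KRT5, KRT15, LAMB3, ITGA2, PTHLH and TP63, the gate genes, in each comparison the 10 largest rises and falls with a symbol, at least 20 CPM and the same sign in every rabbit, and abundant members of lists. Others (INSL5, CYP4B1, KIT, KRT17, TOP2A and members of lists that passed among them) were named after their values were seen. Some genes that met the rule are not reported here. Shares used Wilson intervals and exact permutation tests in scipy 1.17.1, and thinning to 1000 UMIs was taken as an expectation over draws, leaving out the cells under 1000 UMIs (3 members). Scrublet (scanpy 1.11.5) scored doublets, which were kept in the main analysis, and 19 members (6.44%) were among the 5% of cells with the highest scores. Alternatives were DESeq2 1.42.0, other scalings and filters, stricter cell limits, removal of those doublets and leaving out each rabbit. The fits were checked on simulated counts. With 2 rabbits per condition, p-values rest on a spread shared over genes.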

Additional observations from a re-analysis of the deposited data

Results flagged for a closer look

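The change with injury differed between KRT5-detected and uroplakin-detected cells for 7 genes with a symbol (edgeR interaction test with the rabbit as a block, adjusted p from 0.00397 to 0.0428). Values are differences of log2 changes, KRT5-detected minus uroplakin-detected. GRAMD1C gave 4.45 and INSL5 3.05, both rising more in KRT5-detected cells. NR4A3, an immediate early nuclear receptor, gave 2.31, with 24.0 and 17.0 CPM in normal and 52.7 and 68.5 CPM in injured KRT5-detected cells against 156 and 108 and 57.9 and 76.1 CPM in uroplakin-detected cells. MMP1, the interstitial collagenase, gave -1.60, with 1730 and 1740 CPM in normal and 1140 and 361 CPM in injured KRT5-detected cells against 303 and 372 and 511 and 208 CPM. DHRS7, a short-chain dehydrogenase, gave -1.81. S100A4 gave -2.38, with 65.6 and 430 CPM in normal and 77.1 and 54.4 CPM in injured KRT5-detected cells, so its normal rabbits differed and the conditions overlapped. GLNB2 gave 5.44 and lies outside the naming rule. It was at 0 in both classes of Normal_2 and Injury_2, and had 32.5 CPM in KRT5-detected cells of Normal_1 and 190 CPM in those of Injury_1, against 32.2 and 3.33 CPM in the uroplakin-detected cells, so it rests on 1 rabbit per condition, and whether reads of another gene are counted under this symbol was not tested. With mitochondrial shares up to 10%, 1 gene passed, and the 6 genes other than GLNB2, which was not followed there, kept their direction at adjusted p from 0.147 to 0.19 (edgeR).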

How the results depend on the processing

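The comparison with uroplakin-detected cells was the most stable: 938 genes, 329 to 952 when a rabbit was left out (329 without Injury_1, 407 without Normal_2, 556 without Normal_1), 448 with mitochondrial shares up to 10%, 611 with keratins at least 0.4% and 186 of 1361 genes with cells thinned to 1000 UMIs. For injury against normal the 80 genes became 132 with total UMIs as scale, 698 without a filter, 217 with DESeq2, 166 without doublets, 0 with mitochondrial shares up to 10%, 193 with keratins at least 0.4%, and 31 to 756 when a rabbit was left out (31 without Injury_2, 756 without Normal_2). The labels do not say whether same-numbered rabbits belong together, and a shared batch was not tested. Deviations of same-numbered rabbits correlated at r = 0.07 over 4781 genes. With the replicate block 338 genes passed. Against cells with neither, the 69 genes became 263 without a filter, 35 with DESeq2, 32 with mitochondrial shares up to 10% and 11 to 234 without 1 rabbit (11 without Normal_1, 13 without Injury_1, 31 without Normal_2, 234 without Injury_2). The interaction's 12 genes became 30 with total UMIs, 183 without a filter, 22 with DESeq2, 1 with mitochondrial shares up to 10% and 10 to 349 without 1 rabbit (349 without Normal_2, 71 without Normal_1, 60 without Injury_1). The 51 genes of KRT5-high members became 24 with RLE scaling, 33 with total UMIs, 10 with DESeq2 and 5 with the higher split. The causes were not tested, beyond fewer cells or genes where limits are stricter. The share difference ran from -14.6 to -25.2 points without 1 rabbit and reversed to 21.7 with keratins at least 1%. TP63 reversed at -0.18 (injury, mitochondrial limit), at -0.09 and -0.10 (against neither, without Injury_1 or Injury_2, 0.38 at most without Normal_2) and at -0.24 and -0.0367 points (thinned share, 0.713 at most). INSL5 in KRT5-high members reversed to -1.26 with DESeq2. Without 1 rabbit the thinned differences ran from 4.67 to 8.89 points for PTHLH, 13.0 to 21.6 for LAMB3 and 9.62 to 15.4 for ITGA2. Over the alternatives for single genes, 1386 kept direction and side of the threshold, 295 lost the call, 15 gained it and 4 changed direction. Keratins at least 1% left no normal member to fit, and the KRT5-high split could not be fitted with the mitochondrial limit or with 1 rabbit left out.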
